A study of Homo sapiens with 5 samples.

Results

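The genes described here encode the membrane skeleton of the red cell, and the data are 63 of 28283 deposited transcription start site calls, those that lie inside 9 skeleton genes or within 20 kb of them. The genes are ANK1, SPTB, EPB41, EPB42, ADD1, ADD2, ADD3, DMTN and TMOD1. The rule does not use the calls, but the list was drawn up with earlier results of these data known. Of the 63 calls, 23 were forward and 40 reverse, 48 lay inside a gene and 15 in a flank. The calls come from PRO-seq, which maps engaged RNA polymerase by run-on with biotin-labelled nucleotides, in HUDEP-2, an immortalised human erythroid progenitor line. The series has 3 libraries of clones edited with sg1617 in the BCL11A enhancer, 1 for a clone with a 1 bp insertion, 1 for a 13 bp deletion and 1 for a 15 bp deletion, and 2 libraries of wild-type cells. Each clone descends from a single cell, so an edit and a clone cannot be told apart, and nothing in the labels says that the wild-type libraries came from separate cultures.

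The calls were deposited as 1 list per strand, made from 1 HUDEP-2 alignment, with no column per library, no read number and a score of 0 throughout. The name of that alignment is no sample title. Which of the 5 libraries lie behind the calls, edited, wild-type or all, is therefore unknown. Edited and wild-type cells could therefore not be compared, there are no replicates, and the depth behind each call is unknown. An absent call means only that no start site was listed, and whether transcription began at each call was not established. As a check of the erythroid label, 10 of 10 erythroid markers had a call on either strand in the gene or no more than 500 bp outside (median 3.5 calls, from 1 to 40), against 53.7% of all 19974 protein-coding genes. Of 12 markers of other cells, 1 had such a call, ITGA2B, an integrin gene of megakaryocytes, with 1 forward call. The marker lists too were chosen with earlier results known.

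The membrane skeleton is a net of spectrin under the red cell membrane. Spectrin tetramers are joined at their tail ends by junctions of short actin filaments, which the EPB41 protein, the adducins, dematin and tropomodulin bind, and they are tied to band 3 in the membrane by ankyrin and the EPB42 protein. Inherited loss of ankyrin, spectrin or the EPB42 protein gives spherocytosis, and loss of the EPB41 protein gives elliptocytosis. Several of these genes are known to use different first exons in red cell precursors and in other tissues.

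The starts listed for these genes are shown first, since the results turn on which of them carried a call. The windows are from RefSeq on GRCh38.p14 and hold 250 bases before and 50 bases from each annotated start, which is base 251. Of the 9 genes, 7 had entries, with 13 starts in all. Capitals mark AGATAA, the core of a GATA factor site, and TATAAA, the letters of the TATA box, on either strand. The first 4 windows had an own-strand call, the next had a single call, on the opposite strand, and the last 2 had none.
SPTB, chr14:64879858-64880157, reverse strand: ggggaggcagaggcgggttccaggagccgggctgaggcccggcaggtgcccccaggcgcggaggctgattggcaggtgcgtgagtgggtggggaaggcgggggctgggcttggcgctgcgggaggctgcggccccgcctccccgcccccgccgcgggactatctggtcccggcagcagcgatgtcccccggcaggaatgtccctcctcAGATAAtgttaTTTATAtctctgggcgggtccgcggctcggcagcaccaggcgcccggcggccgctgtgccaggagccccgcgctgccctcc
EPB41, chr1:28886850-28887149, forward strand: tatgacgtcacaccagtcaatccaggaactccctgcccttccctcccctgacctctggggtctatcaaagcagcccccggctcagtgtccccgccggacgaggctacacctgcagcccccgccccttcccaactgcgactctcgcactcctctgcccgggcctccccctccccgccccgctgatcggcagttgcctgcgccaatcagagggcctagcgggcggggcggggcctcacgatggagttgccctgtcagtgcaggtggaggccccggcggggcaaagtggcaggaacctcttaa
ADD3, the third start, chr10:110007734-110008033, forward strand: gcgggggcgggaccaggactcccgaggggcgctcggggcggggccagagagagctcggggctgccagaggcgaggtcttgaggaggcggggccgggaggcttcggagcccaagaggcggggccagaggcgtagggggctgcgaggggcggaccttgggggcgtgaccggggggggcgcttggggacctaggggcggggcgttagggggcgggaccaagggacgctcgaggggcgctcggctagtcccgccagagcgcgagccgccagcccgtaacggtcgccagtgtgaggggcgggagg
TMOD1, the second start, chr9:97501416-97501715, forward strand: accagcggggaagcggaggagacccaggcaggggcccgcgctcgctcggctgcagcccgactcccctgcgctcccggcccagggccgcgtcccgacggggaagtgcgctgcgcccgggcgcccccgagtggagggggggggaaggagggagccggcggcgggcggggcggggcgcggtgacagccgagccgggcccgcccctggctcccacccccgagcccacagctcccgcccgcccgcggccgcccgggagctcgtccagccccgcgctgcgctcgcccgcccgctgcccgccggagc
ADD1, chr4:2843594-2843893, forward strand: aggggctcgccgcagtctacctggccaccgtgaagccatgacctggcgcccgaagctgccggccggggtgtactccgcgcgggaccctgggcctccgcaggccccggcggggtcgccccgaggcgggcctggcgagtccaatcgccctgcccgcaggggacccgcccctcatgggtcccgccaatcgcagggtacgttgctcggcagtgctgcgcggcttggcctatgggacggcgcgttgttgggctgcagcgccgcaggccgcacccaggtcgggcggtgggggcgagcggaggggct
ADD3, the first start, chr10:109996123-109996422, forward strand: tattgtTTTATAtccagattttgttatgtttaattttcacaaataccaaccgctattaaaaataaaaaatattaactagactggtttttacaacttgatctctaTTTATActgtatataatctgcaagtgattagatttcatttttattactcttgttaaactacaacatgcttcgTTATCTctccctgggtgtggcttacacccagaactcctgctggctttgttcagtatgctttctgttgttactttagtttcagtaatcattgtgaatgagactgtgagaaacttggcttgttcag
EPB42, chr15:43220969-43221268, reverse strand: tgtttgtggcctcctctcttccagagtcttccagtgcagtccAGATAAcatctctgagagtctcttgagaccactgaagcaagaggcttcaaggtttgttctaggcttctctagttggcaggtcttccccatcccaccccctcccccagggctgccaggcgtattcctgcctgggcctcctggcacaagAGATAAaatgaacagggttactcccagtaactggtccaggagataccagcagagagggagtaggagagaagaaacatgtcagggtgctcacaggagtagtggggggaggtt

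The 4 windows with an own-strand call were rich in G and C, at 73.7% for SPTB, 67.7% for EPB41, 77.0% for the third start of ADD3 and 83.3% for the second start of TMOD1, against a median of 58.7% over all 34961 windows (quartiles 47.0 and 68.0%). The first starts of ADD3 and TMOD1, which had no call in their windows, were at 32.0% and 35.3%. The window of ADD2 at its outer start, also without a call, was at 76.7%. A high share of G and C was thus found in windows with and without a call.

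AGATAA was found in 3 of the 13 windows, those of SPTB, of EPB42 and of the first start of ADD3, and in 10.3% of all windows. EPB42 held it at bases 43 and 190, and SPTB at base 209. TATAAA was found in the windows of SPTB, of the first start of ADD3 and of the first start of TMOD1, and in 11.5% of all windows. In SPTB it began at base 220, close to the AGATAA, without overlapping it. It read TTTATA there, so the motif lay on the strand opposite to the gene. The same held for the matches at bases 7 and 105 of the ADD3 window. The TMOD1 match, at base 31, was on the gene's own strand but far from the start at base 251. CACCC, the core of the KLF1 site, was in 59.9% of all windows and CAGNTG, an E-box, in 49.9%, so that their presence separates few windows from the rest. These are matches of letters, searched on both strands, and binding was not measured.

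The promoter table also showed which base the calls mark. Over 8116 own-strand calls inside its windows, the called base was C in 49.4% and the base after it was A in 49.7%, and the pair CA stood there in 33.7%, against 1.5% for the base before the call and the called base. The shares were alike on the forward and the reverse strand, at 32.9% and 34.5% for the pair. The initiator of many mammalian promoters has a pyrimidine before the first transcribed base, which is often A. In SPTB and at the third start of ADD3 the call lay at base 250, a C followed by the A of the annotated start. In EPB41 the call lay at base 264, a G followed by A, and in TMOD1 at base 256, a C followed by G. Whether listed positions are displaced by 1 base from the first transcribed base was not tested further.

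A call at the annotated start was found in 3 of the 9 genes, SPTB, EPB41 and TMOD1. It was counted when it lay on the gene's own strand within 500 bp of the outer start in the gene table. Of 15812 protein-coding genes with a listed strand, 6939 (43.9%) met the same rule. With every start of the promoter table allowed, which was decided once the calls were known, ADD3 was added and the number was 4 of 9, against 48.8% of protein-coding genes. The strand of ANK1 (reverse) and of DMTN (forward), both on chromosome 8, was taken from general knowledge, and for them only the outer start could be used.

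SPTB encodes beta-spectrin, the chain that binds ankyrin and actin. The gene (ID 6710) lies on chromosome 14 from 64746283 to 64879907 on the reverse strand, 133625 bp long. Its start call was at 64879908, 1 bp upstream of the annotated start, and formed a divergent pair with a forward call 179 bp away at 64880087. A further forward call lay 687 bp upstream of the start. The other start in the table, 56527 bp farther in, had no call within 500 bp. SPTB was the only member whose own-strand start call had an opposite-strand call within 1000 bp upstream, a feature of 65.6% of protein-coding genes called at the outer start.

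EPB41 encodes the junction protein that strengthens the contact of spectrin with actin. The gene (ID 2035) runs from 28887100 to 29120041 on chromosome 1, forward strand, 232942 bp long. Its single own-strand call was at 28887113, 13 bp inside the start, and the start 27469 bp farther in had none. No divergent call lay within 1000 bp, and the nearest reverse call upstream was at 28883870, 3230 bp before the gene. Apart from a reverse call close to the start the rest of the gene held no call.

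TMOD1 encodes tropomodulin, which caps the slow-growing end of the actin filament. The gene (ID 7111) lies on chromosome 9 from 97501180 to 97601743, forward strand. Its single own-strand call, at 97501671, was 491 bp from the outer start but 5 bp from the second listed start. With a window of 100 bp around the outer start TMOD1 was no longer counted. Upstream of that call there was no reverse call within 1000 bp.

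The 3 adducin genes differed in what was called at their starts. Adducins cap the fast-growing end of actin and recruit spectrin to it, and the red cell form is known as a pair of alpha with beta subunits, with gamma known mainly from other cells. ADD3, the gamma gene (ID 120, chromosome 10, 109996373 to 110135565, forward strand), had its single own-strand call at 110007983, 11610 bp inside the gene and 1 bp upstream of the third listed start. Neither of its other starts, the outer one and one 9574 bp farther in, had a call within 500 bp. Of the protein-coding genes, 774 (4.90%) were called likewise at an inner start alone. ADD3-AS1, an antisense RNA gene, covers the called start, and no reverse call lay in ADD3.

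ADD1, the alpha gene (ID 118, chromosome 4, 2843844 to 2930062, forward strand), had no own-strand call at all inside the gene. Around its start there were 3 reverse calls, at 2843375 and 2843709, which are 469 and 135 bp upstream, and at 2844515, which is 671 bp downstream. The nearest forward call to the start was 31842 bp away. Of 8099 protein-coding genes with no own-strand call at a listed start, 485 (5.99%) had such an opposite-strand call within 1000 bp upstream of the outer start.

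ADD2, the beta gene (ID 119, chromosome 2, 70656784 to 70768200, reverse strand), had no call within 20 kb upstream and none at either listed start, which lie 485 bp apart. Its first own-strand call was at 70717747, 50453 bp inside the gene. This call formed a divergent pair with a forward call 191 bp away at 70717938, the one opposite-strand call in ADD2. The other 4 own-strand calls lay together near the end of the gene and are described with those of SPTB and ANK1.

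**Figure D1:**
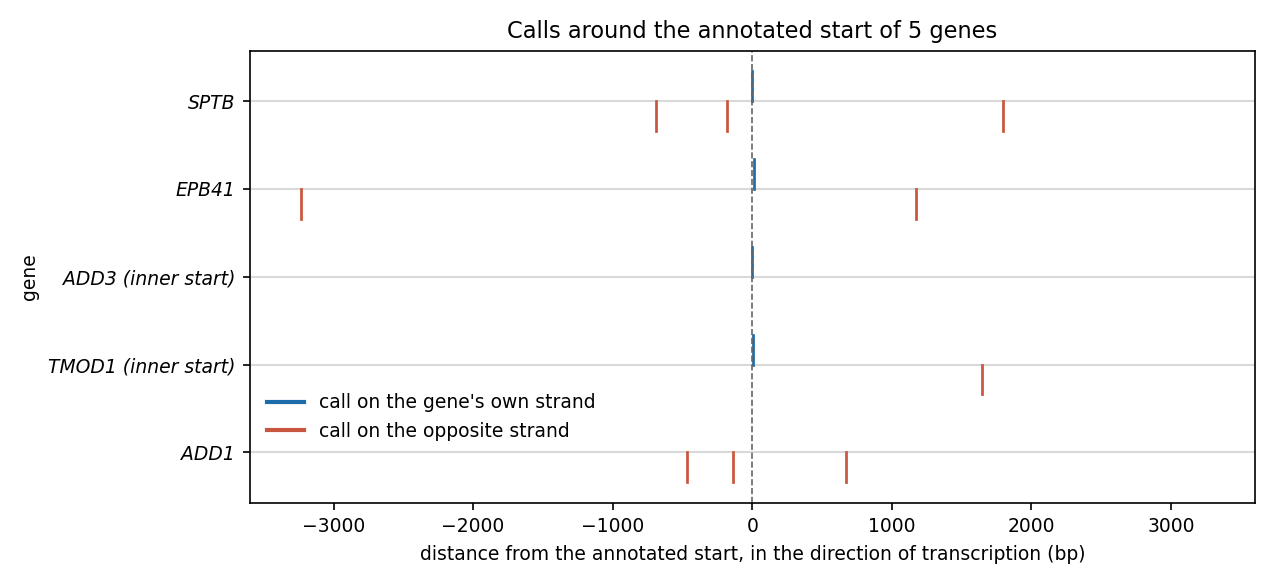
Calls around the annotated start of SPTB, EPB41, ADD3 (the third listed start), TMOD1 (the second listed start) and ADD1, with the distance from that start in bp in the direction of transcription on the horizontal axis. Blue ticks above a line are calls on the gene's own strand, at -1, 13, -1 and 5 bp in the first 4 genes and missing in ADD1, and red ticks below it are calls on the opposite strand.

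Opposite-strand calls also lay a short way downstream of these starts. They were 1795 bp downstream of the outer start in SPTB, at 64878112, and 1176 bp in EPB41, at 28888276. In ADD1 the distance was 671 bp and in TMOD1, at 97503314, 2134 bp. Counting such calls 500 to 2500 bp downstream, limits set after these values had been seen, 4 of the 9 genes had one, against 8.72% of protein-coding genes. All 3 members called at the outer start were among them, against 13.7% of protein-coding genes so called. None of these 4 calls had a divergent partner.

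ANK1 encodes erythrocyte ankyrin, the adaptor between beta-spectrin and band 3. The gene (ID 286) lies on chromosome 8 from 41653225 to 41896741, 243517 bp long, and its red cell transcripts are known to begin at a promoter inside the gene. There was no call within 20 kb upstream of the outer start or in the first 67868 bp of the gene. Inside it lay 19 own-strand and 7 opposite-strand calls, or 26 of the 48 calls inside members. Only 3 of the 15812 protein-coding genes with a listed strand had more own-strand calls, TFRC with 37, ITGA4 with 24 and CD36 with 22, named after their values had been seen. At 0.0780 own-strand calls per kb ANK1 was below DMTN, with 0.0893, and above ADD2, with 0.0449, and SPTB, with 0.0299.

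The calls of ANK1 fell into groups. The first, 67868 to 73620 bp from the outer start, had 3 reverse calls at 41828873, 41828181 and 41823121, and a forward call at 41828323 that paired with the second of them over 142 bp. The densest held 8 calls in 2563 bp, from 41796761 to 41799324, 97417 to 99980 bp from the outer start. It had 5 reverse calls, at 41798580, 41798307, 41797662, 41797367 and 41796761, and 3 forward calls, at 41799324, 41798623 and 41797844. Of its 8 calls 7 had a divergent partner, the closest 43 and 182 bp apart, and several shared one.

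The 3 forward calls of that group and the reverse calls at 41798307 and 41798580 also lay inside LOC105379392, an unnamed non-coding RNA gene from 41797778 to 41801341 whose strand the gene table does not give. Beyond the group, 3 reverse calls at 41793763, 41793005 and 41785833 had no partner. A divergent pair 66 bp apart followed at 41768017 and 41768083, at 52.9% and 52.8% of its length, with 2 unpaired forward calls at 41771492 and 41772983. Farther on, 3 reverse calls lay within 1234 bp at 41707686, 41706720 and 41706452. A single reverse call stood at 41668049, 14824 bp before the gene end. Between this call and those at the gene end lie MIR486-1 and MIR486-2, microRNA genes from 41660441 to 41660508.

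DMTN encodes dematin, an actin-bundling protein of the junctions. The gene (ID 2039) lies on chromosome 8 from 22048931 to 22082525, 33595 bp long. As in ANK1, no call lay at the outer start, and the nearest was 7882 bp inside. There 3 forward calls lay within 1305 bp, at 22056813, 22057693 and 22058118, and a reverse call followed at 22059900, 10969 bp from the outer start. None of the 4 was paired. Whether the first of them marks an inner annotated start was not determined, since inner starts of DMTN were not used here.

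EPB42 encodes a skeleton protein that binds band 3 and ankyrin. The gene (ID 2038) lies on chromosome 15 from 43197227 to 43225737, 28511 bp long, on the reverse strand. It was the one member with no call on either strand inside the gene, a state shared by 45.8% of protein-coding genes when own-strand calls up to 500 bp upstream are counted as well. The nearest reverse call to its outer start was 104536 bp away. The start in the promoter table lies 4719 bp inside the outer one.

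**Figure D2:**
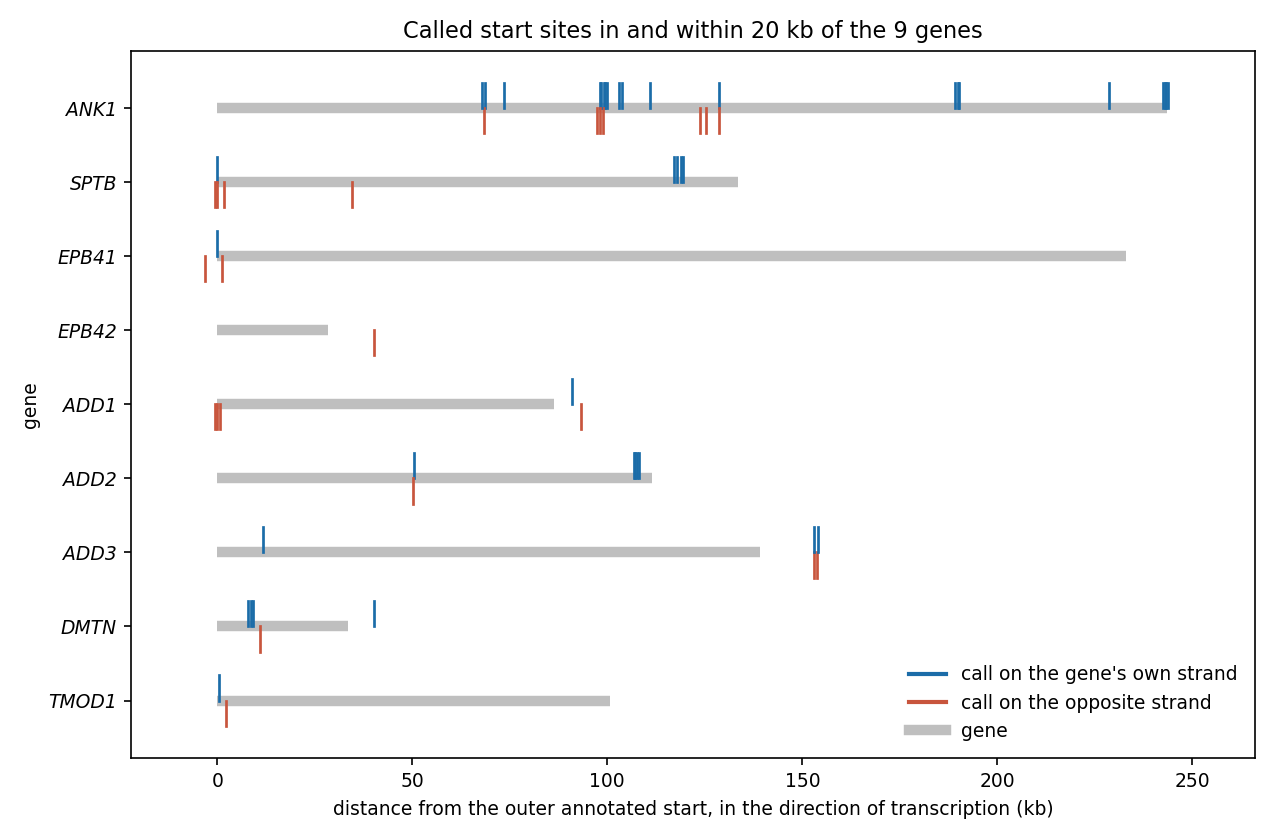
Map of all 63 calls, with 1 row per gene and the distance from the outer annotated start in kb, in the direction of transcription, on the horizontal axis. Grey bars are the genes, blue ticks above them own-strand calls and red ticks below them opposite-strand calls. Own-strand calls stand at or near the outer start in SPTB, EPB41 and TMOD1 and only farther in for ANK1, ADD2, ADD3 and DMTN.

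Runs of own-strand calls near the end of the gene were found in ANK1, SPTB and ADD2. In SPTB 4 reverse calls lay between 64760617 and 64762832, 14334 to 16549 bp before the gene end and over 117 kb from the start call. In ADD2 4 lay between 70660118 and 70661285, 3334 to 4501 bp before the end. In ANK1 3 lay at 41654240, 41653844 and 41653569, 1015 to 344 bp before the end, and another at 41653067, 158 bp past it. All of these calls were without a divergent partner.

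The same rule was applied to other long genes. Of 3441 protein-coding genes of 80 kb or longer with a listed strand, 11 (0.320%) had 3 or more own-strand calls in their last 20 kb, and SPTB and ADD2 are 2 of the 11. The others were HMGB1, with 10 such calls, ITGA4, NFIX and TSC22D1, with 5 each, CACNA1C, HPSE2 and VMP1, with 4 each, and FAM53A and POC1B-DUSP6, with 3 each. Of the 7 members of that length 3 had such a run, ANK1 being counted by its known strand. With calls within 500 bp merged, a setting chosen after seeing the data, SPTB alone of the 7 had 3 or more, against 8 of the 3441 genes (0.232%). ANK1 and ADD2 then had 2 each. The counts of ANK1 take in the lone call at 41668049, 14824 bp before the gene end, and leave out the call past the end. The limits of 80 kb, 20 kb and 3 calls were set after the members' runs had been seen, so these numbers are a description. ADD2 had no own-strand call at a listed start, as had CACNA1C, HPSE2 and POC1B-DUSP6. Anywhere inside the members, 18 gaps between neighbouring own-strand calls were no longer than 1100 bp. They lay in ANK1, ADD2, SPTB and DMTN and ran from 260 to 1043 bp, with longer gaps left out by that limit. The shortest gap between neighbouring calls of a strand in the lists was 206 bp. Whether the caller sets a minimum distance was not tested.

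**Figure D3:**
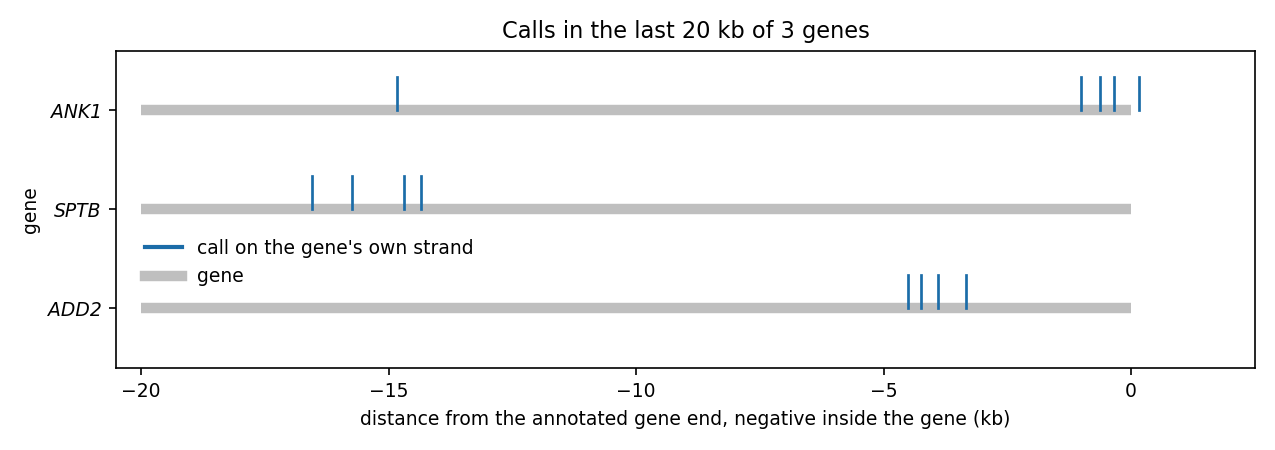
Calls in the last 20 kb of ANK1, SPTB and ADD2, with the distance from the annotated gene end in kb on the horizontal axis, negative inside the gene. Grey bars are the genes and blue ticks own-strand calls. Each gene has a run of 4, which lies across the gene end in ANK1, 3334 to 4501 bp before it in ADD2 and 14334 to 16549 bp before it in SPTB.

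Taking the 9 genes as a group, 34 own-strand and 14 opposite-strand calls lay inside 1109.58 kb of gene, or 0.0306 and 0.0126 per kb. Over the protein-coding genes with a listed strand the values were 0.00867 and 0.00484 per kb. ANK1 held 19 of the 34 own-strand calls, and without it the members had 0.0173 per kb. Of the 34 calls 32 lay over 1000 bp from the outer start. By gene the own-strand calls numbered 19 in ANK1, 5 in ADD2, 4 in SPTB, 3 in DMTN, 1 each in EPB41, ADD3 and TMOD1, and 0 in ADD1 and EPB42. An own-strand call in the gene or in the 500 bp before it was held by 7 of the 9 genes, all but ADD1 and EPB42, against 51.6% of protein-coding genes. The start call of SPTB is not among its 4, since it lies 1 bp outside the gene. Thus 4 members had 3 or more own-strand calls, against 3.26% of protein-coding genes of all lengths. The other 5 had 1 or 0, as most protein-coding genes do. The members are long, with 7 of the 9 at 80 kb or longer, against 3441 of the 15812 protein-coding genes with a listed strand. With calls within 500 bp merged, ANK1 had 14, ADD2 and SPTB 3 each and DMTN 2, so that 3 members had 3 or more, against 2.07% of protein-coding genes.

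**Figure D4:**
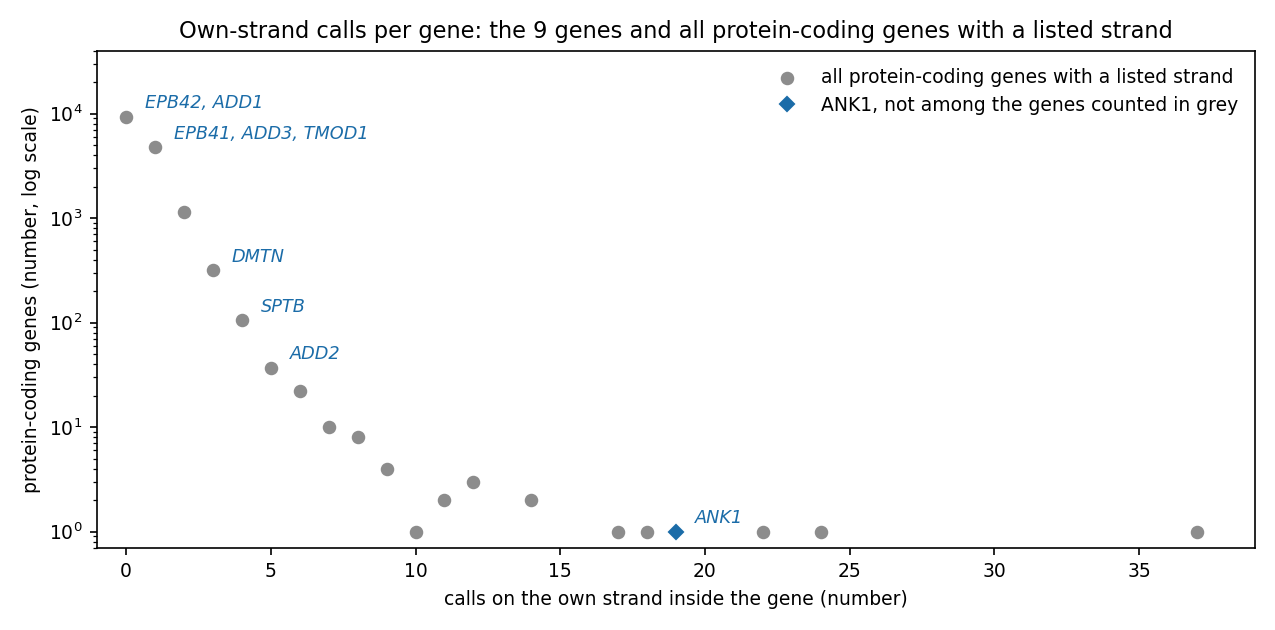
Number of own-strand calls inside a gene (horizontal axis) against the number of protein-coding genes with a listed strand that have it (vertical axis, log scale). Grey points count the 15812 genes, and the names show where the 9 members stand. ANK1, drawn as a diamond, had 19, and DMTN, with 3, is likewise not among the genes counted in grey.

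Divergent pairs inside the members were concentrated in ANK1. Pairing required an opposite-strand call no more than 1000 bp upstream. This held for 13 of 48 calls inside members (27.1%, Wilson 95% interval 16.6 to 41.0%) and for 16214 of 28159 calls on chromosomes 1 to 22 and X (57.6%, interval 57.0 to 58.2%). ANK1 held 11 of the 13, with 42.3% of its 26 calls paired (interval 25.5 to 61.1%), and ADD2 the other 2, so that without ANK1 9.09% of 22 calls were paired. The intervals cover counting alone, and calls of 1 gene are not independent. The start calls of SPTB, 1 bp outside the gene, and of many other genes count in the lists' share but not in that of calls inside members.

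The genes like ANK1, with many own-strand calls but none at the outer start, were CD36 (22 calls in 77068 bp), BCOR and GSE1 (12 each), GFI1B (11) and DLGAP1, FKBP5 and TGIF1 (9 each). The likeness was measured by the number of own-strand calls in 1 list, and the fifth place was shared. All but BCOR and DLGAP1 had a call at another listed start. For genes without a call at any listed start the order was BCOR with 12, DLGAP1 with 9, PLXND1 with 6 and then ADD2 and HPSE2 with 5 each.

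In the flanks 6 calls lay upstream and 9 downstream of the members, the farthest 14766 bp from its gene and the nearest call left out 21379 bp upstream of ADD2. Upstream of the genes were the 2 forward calls and the start call of SPTB, the 2 reverse calls of ADD1 and the reverse call of EPB41. Downstream of ADD3 were 2 divergent pairs, at 110149306 and 110149411, 105 bp apart, and at 110150101 and 110150331, 230 bp apart, 13741 to 14766 bp past the gene and inside the non-coding RNA gene LOC105378479. Downstream of EPB42 the forward call at 43185436 lay 33 bp inside the start of its neighbour CCNDBP1. Downstream of DMTN the forward call at 22089154 was 4 bp from the left end of FHIP2B. Downstream of ADD1 a forward call lay at 2934915 and a reverse call at 2937046. The forward call lay between SLC75A1 and NOP14-AS1, a non-coding RNA gene, and the reverse call inside NOP14-AS1. Of 11 protein-coding genes with a listed strand that overlap the members or lie within 20 kb of them, 5 had a call at their own outer start, TMEM62, CCNDBP1, SH3BP2, NOP14 and TSTD2, against 43.9% of protein-coding genes. The other 6 did not. TSTD2 overlaps the end of TMOD1, and its start call, at 97633371, had an offset of -3 bp.

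Partners of the skeleton genes with a listed strand were called at a listed start with 1 exception. The list of 16 further membrane and junction genes shares RHAG and SLC4A1 with the erythroid markers. Of the 16, ACTB and SLC4A1 had no listed strand and were not counted. Of the other 14, 13 (92.9%) had a call at a listed start, against 48.8% of protein-coding genes. They include GYPC, glycophorin C, which anchors the EPB41 protein, with 4 own-strand calls, the highest number in the list, and a start call at -12 bp. RHAG, the Rh-associated glycoprotein, SLC2A1, the glucose transporter, and PIEZO1, a mechanically gated channel, were called at -1 bp. TPM1 and TPM3, the tropomyosins of the short actin filaments, were called at inner starts alone, at 3 and 37 bp. TMOD3, a tropomodulin of many tissues, was the exception, with its nearest own-strand call at an offset of -91929 bp. KCNN4, the calcium-activated potassium channel, had a start call at -42 bp and none inside the gene.

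Relatives of the skeleton genes that serve other tissues had few calls. Of 16 such genes 15 had a listed strand. Of these 1 (6.67%) was called at a listed start, against 48.8% of protein-coding genes. It was SPTAN1, the alpha-spectrin of non-red cells, at 2 bp. An own-strand call in the gene or in the 500 bp before it was held by 3 of the 15, against 51.6% of protein-coding genes. SPTBN4 and ANK3 had 1 own-strand call each, away from a listed start. SPTBN1, SPTBN5, ANK2, EPB41L1, EPB41L2, EPB41L3, EPB41L5, TMOD2, TMOD4, LMOD1, LMOD2 and LMOD3 had no own-strand call. Within the families, SPTB was called at its start and SPTBN1, SPTBN4 and SPTBN5 were not. TMOD1 was called and TMOD2, TMOD3 and TMOD4 were not, and likewise EPB41 but not EPB41L1, EPB41L2, EPB41L3 or EPB41L5. ANK1, judged at its outer start alone, had no call there but held 19 own-strand calls inside the gene. ANK2 and ANK3 had no own-strand call at any listed start, and held 0 and 1 inside the gene. The lists are counts of genes chosen with earlier results of these data known, and no test was made on them.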

How the data were processed

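PRO-seq was run on 5 libraries of HUDEP-2 cells, 3 of sg1617-edited clones and 2 of wild-type cells, and the values used are 2 deposited lists of start sites, 14124 forward and 14159 reverse calls. TSScall made them, per the file headers, from 1 sorted and de-duplicated HUDEP-2 alignment, which the headers do not tie to any of the libraries. The submitters' processing notes name hg38 as the build and, with no role, deepTools 3.5.4, SAMtools 1.17, BWA 0.7.16a and Picard. TSScall's settings were not given in the sources used here. The score deposited by the authors was 0 in every row, and the positions deposited by the authors were intervals 1 base long, whose end was taken as the position. The depth is unknown.

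Genes came from the RefSeq table of GRCh38.p14 and strands and inner starts from the RefSeq promoter table, which gave a strand for 15812 of 19974 protein-coding genes on chromosomes 1 to 22 and X. The window at a start was 500 bp, the flank 20 kb and the pairing distance 1000 bp. The only intervals are Wilson 95% intervals over calls, and no test between groups was possible. Other windows, flanks, pairing distances, merging of calls, the start coordinate and leaving out ANK1 were tried. The named genes were all 9 members, the highest, lowest and uncalled genes of both further lists, called neighbours and the 5 genes most like ANK1, with ties. Other names, among them RHAG, SLC2A1, PIEZO1, PLXND1 and the genes with runs of calls near their ends, were chosen after their values were seen. The members and lists were chosen with earlier results of these data known. Counting was tested on simulated calls. Scripts ran under matplotlib 3.10.9, scipy 1.17.1, pandas 2.3.3, numpy 2.4.6 and Python 3.11.15.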

Additional observations from a re-analysis of the deposited data

How the results depend on the processing

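The number of members with a start call was 3 in the main setting, 2 with a window of 100 bp, 3 with 1000 bp or with the start coordinate, and 4 with every start of the promoter table, but 7 with any own-strand call in the gene or the 500 bp before it. Over all protein-coding genes the count stayed between 6185 and 8160, against 6939. Much rests on ANK1: without it own-strand calls inside members numbered 15 in place of 34, opposite-strand calls 7 in place of 14, own-strand calls per kb 0.0173 in place of 0.0306, and 9.09% of calls in place of 27.1% were paired. A flank of 50 kb held 29 calls in place of 15. The share of all calls that were paired was 53.2% with partners within 500 bp, 59.3% within 2000 bp and 55.5% with calls within 500 bp merged, against 57.6%, since these settings change which calls can pair. With the same merging the members had 25 own-strand calls, and members with 3 or more in their last 20 kb numbered 1 in place of 3. Taking the start coordinate as the position changed neither count of called genes. No paired analysis was possible because the lists carry no column per library. No reads lie behind the calls in these files, so a missing call and a call just under the caller's limit cannot be told apart.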
